A study of Rattus norvegicus with 54 samples.

Results

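To examine whether access to food during daytime work changed heart transcripts later, during the active phase, 9 rats that worked without food (WRF) were compared with 9 rats that worked with food (W), all killed in the dark phase. The rats were chosen by name and time: the WRF and W rats labeled ZT13, ZT17, and ZT21 (hours after lights on), 3 rats per group and time, or 18 of the 54 rats of the series. All were male wild-type Wistar rats, 7 to 8 weeks old at the start, housed singly in 12 h of light and 12 h of dark for the 5 weeks of the protocol. W and WRF rats alike were kept awake in a slowly turning drum during part of the light phase, with water at all times. W rats also had food at all times, whereas WRF rats had none during work. The labels call this food at night, and by the study's methods it included the hours of light before and after work and the days without work. Control rats (C), which did not work and had food at all times, served as a reference at the same hours (n = 9). The rats were killed on days without work, and whole hearts, atria included, were crushed for polyA RNA, so fewer cells of a type and less RNA per cell cannot be told apart.

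The heart is among the tissues whose transcripts follow both the daily clock and the timing of meals. Rats eat mostly at night, and food taken in the light phase sends a metabolic signal that competes with the light cycle. In the fed heart, insulin and amino acids favor glucose use, ribosome production, and protein synthesis, whereas fasting raises fatty acid oxidation through PPAR alpha and its coactivator Ppargc1a and induces Pdk4, which holds back pyruvate oxidation, and the muscle ubiquitin ligase Fbxo32.

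By their numbers, the rats fall into sets of 3, with 1 rat at each time: W7, W9, and W11 (W7-11), W20-22, W36-38, WRF4-6, WRF42-45 (WRF42, WRF44, and WRF45), and WRF52-54. The labels do not say whether a set shares a batch. The values are fpkm for 10257 genes, which do not give the number of reads behind each rat, and the study's read totals were not used here. The sum of fpkm had a median of 501872 in W rats (437693 to 653480) and 573393 in WRF rats (497419 to 749554). Ckm, the muscle creatine kinase that marks heart and skeletal muscle, lay between 1137 and 1667 fpkm in W rats and between 1274 and 2734 in WRF rats. Myl7, the myosin light chain of the atria, was above 100 fpkm in 4 W rats (W9 and W20-22) and 5 WRF rats (WRF42-45, WRF52, and WRF53), and W21 held 1027 fpkm of the liver gene Alb. In the rats W36-38 the clock genes were out of phase with the other sets: the clock activator Arntl stood at 8.94 fpkm at ZT13, where the other 5 sets had 0.51 to 0.88 fpkm. For WRF42-45 and WRF52-54, 2 label fields give different times. The title, used here, gives ZT13, ZT17, and ZT21, and the other field gives ZT9, ZT13, and ZT17, by which WRF42 and WRF52 would belong to the light phase.

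No gene passed the test. Of the 10257 genes, 0 (percent called 0) reached an adjusted p of 0.05 in limma, with time as a covariate, and the smallest adjusted p was 0.0581. At an unadjusted p under 0.05, 2384 genes were higher (23.2%) and 623 lower (6.07%) in WRF than in W rats. An exact Mann-Whitney test without the time covariate called 373 genes higher and 15 lower, and the limma fit over the genes averaging 5 fpkm or more called 650 and 21. The split depended on scaling. After median-of-ratios scaling 1300 genes were higher (12.7%) and 1426 lower (13.9%), and 47.7% of the genes past the unadjusted threshold were higher against 79.3% as deposited. After scaling each rat to the same total, 298 were higher and 935 lower. The median difference over all genes was 0.07 on the log2(fpkm + 1) scale as deposited, 0.01 after median-of-ratios scaling, and -0.07 after scaling to equal totals. All differences below are WRF minus W on the log2(fpkm + 1) scale, ± SE, which understates the change of low genes.

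**Figure D1:**
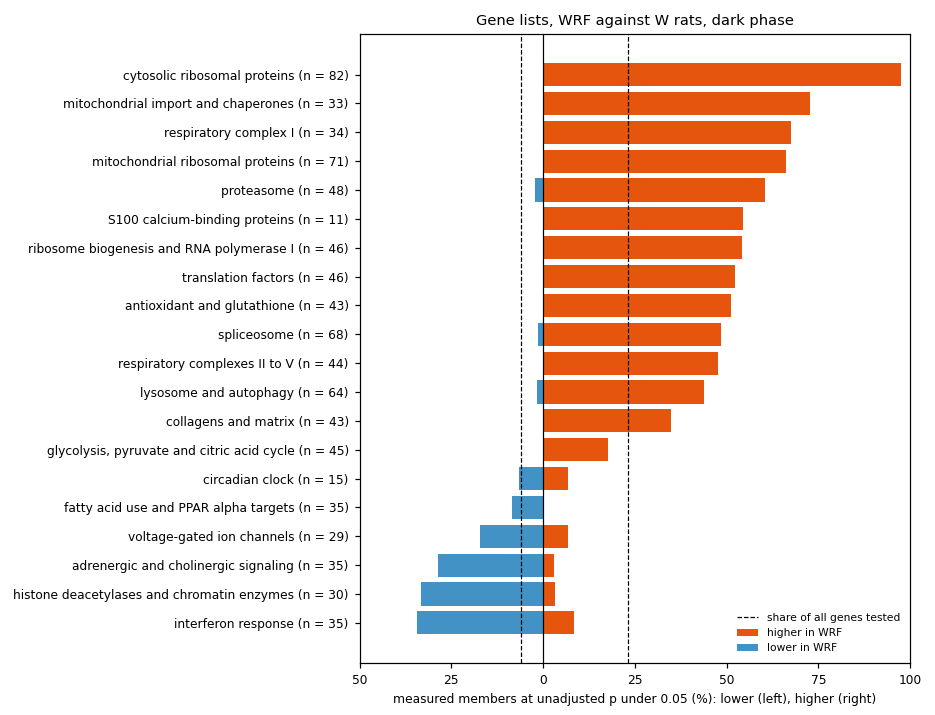
Share of the measured members of 20 gene lists at an unadjusted p under 0.05 (x axis, percent, lower in WRF to the left and higher to the right), with the number of measured members in brackets. The dashed lines are the shares of all genes tested, 6.07% lower and 23.2% higher. In the list of cytosolic ribosomal proteins 80 of 82 members lie on the higher side.

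The ribosome gave the most uniform pattern among the 49 gene lists. Of 87 cytosolic ribosomal protein genes, 82 were measured, and 80 were higher and 0 lower at an unadjusted p under 0.05, with a median difference of 0.39 against 0.07 over all genes. None was called. The median was 0.32 after median-of-ratios scaling, with 75 higher and 0 lower, and 0.23 after scaling to equal totals, with 31 and 0. Rpl10a, a protein of the large subunit, ranged from 148 to 194 fpkm in W rats (median of 167) and from 184 to 275 fpkm in WRF rats (median of 214). The difference was 0.35 ± 0.08 (adjusted p = 0.0581), and the ranges overlapped only between 184 and 194 fpkm. Rps24, a protein of the small subunit, ranged from 583 to 862 fpkm in W rats (median of 668) and from 772 to 1382 fpkm in WRF rats (median of 888), with a difference of 0.44 ± 0.10 (adjusted p = 0.0581). The paralog Rpl22l1 differed by 0.52 ± 0.11 and Rpl15 by 0.35 ± 0.07 (both adjusted p = 0.0581). Read assignment among ribosomal protein genes and their processed pseudogenes is uncertain.

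The promoters of the ribosomal protein and proteasome genes with the smallest p are shown, up to 4 per list where RefSeq gave one, because these 2 lists held many members on the higher side. The sequences are the 250 bases before the RefSeq start (build GRCr8), written 5′ to 3′. Capitals mark matches, on either strand, to the ETS motif CCGGAAGT, to the YY1 motif AAGATGGC, to the NRF1 motif GCATGCGC, to the GC box GGGCGG, to the CCAAT box, to the TATA box with the letters TATAAA, to the E-box CACGTG, or to the antioxidant response element (ARE) TGACNNNGC. Adjacent or overlapping matches run together.
Rpl22l1, chr2:113682946-113683195, plus strand: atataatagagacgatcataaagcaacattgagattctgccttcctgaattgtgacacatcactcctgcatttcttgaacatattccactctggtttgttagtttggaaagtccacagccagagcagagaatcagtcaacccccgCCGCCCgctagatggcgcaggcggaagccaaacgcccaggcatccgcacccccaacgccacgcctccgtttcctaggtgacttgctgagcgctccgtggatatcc
Rpl10a, chr20:6390283-6390532, plus strand: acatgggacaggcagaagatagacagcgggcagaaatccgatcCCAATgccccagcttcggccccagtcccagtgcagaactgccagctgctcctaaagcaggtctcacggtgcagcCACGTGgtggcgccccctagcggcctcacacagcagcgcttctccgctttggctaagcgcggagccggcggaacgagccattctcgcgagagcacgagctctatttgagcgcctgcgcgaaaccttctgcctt
Rps24, chr16:96267-96516, plus strand: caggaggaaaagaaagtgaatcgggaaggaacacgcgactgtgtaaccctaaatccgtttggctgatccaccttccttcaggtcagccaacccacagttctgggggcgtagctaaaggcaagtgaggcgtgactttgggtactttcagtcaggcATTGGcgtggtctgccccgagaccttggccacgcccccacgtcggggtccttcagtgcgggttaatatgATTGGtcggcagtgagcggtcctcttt
Psmb4, chr2:185134562-185134811, minus strand: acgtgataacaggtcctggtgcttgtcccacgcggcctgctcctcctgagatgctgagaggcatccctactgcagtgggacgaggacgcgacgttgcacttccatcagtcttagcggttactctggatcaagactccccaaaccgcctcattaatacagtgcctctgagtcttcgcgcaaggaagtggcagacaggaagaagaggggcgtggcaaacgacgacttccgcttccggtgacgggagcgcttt
Psmb2, chr5:144254808-144255057, plus strand: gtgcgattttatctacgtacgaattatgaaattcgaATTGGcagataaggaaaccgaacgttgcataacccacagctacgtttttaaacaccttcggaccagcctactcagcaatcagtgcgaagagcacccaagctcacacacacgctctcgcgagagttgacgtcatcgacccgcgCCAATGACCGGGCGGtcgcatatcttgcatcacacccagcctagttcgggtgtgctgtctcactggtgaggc
Psmb3, chr10:83193537-83193786, plus strand: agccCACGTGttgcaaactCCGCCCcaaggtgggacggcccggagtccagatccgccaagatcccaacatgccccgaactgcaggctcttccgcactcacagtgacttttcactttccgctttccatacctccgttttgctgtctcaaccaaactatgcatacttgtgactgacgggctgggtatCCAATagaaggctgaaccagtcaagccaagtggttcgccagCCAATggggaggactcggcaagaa
Psmb6, chr10:55737638-55737887, plus strand: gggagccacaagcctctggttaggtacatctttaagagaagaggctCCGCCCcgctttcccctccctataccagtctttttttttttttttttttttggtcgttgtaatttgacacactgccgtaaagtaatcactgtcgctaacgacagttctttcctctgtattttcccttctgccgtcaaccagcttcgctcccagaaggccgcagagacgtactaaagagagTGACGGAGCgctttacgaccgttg
The ARE letters were found in Psmb2, where they overlap a CCAAT box and a GC box, and in Psmb6, but not in Psmb3 or in Psmb4, which had no match to any of the motifs. Over the list, 8 of 44 proteasome promoters (18.2%) and 12 of 66 ribosomal protein promoters (18.2%) held them, against 10.2% of all 27455 promoters. The ETS letters were in 15.9% of the proteasome promoters, 10.6% of the ribosomal protein promoters, and 3.29% of all promoters. Of the 8141 heart genes with a promoter sequence, of 10257, 12.9% held the ARE letters and 7.49% the ETS letters, nearer to the lists than all promoters were. The other heart genes had no matched promoter sequence, and the lists were not tested against the heart genes. The matches describe the letters in these windows only.

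Genes that make and feed ribosomes lay on the same side. Of 46 measured genes of ribosome biogenesis and RNA polymerase I, 25 were higher and 0 lower at an unadjusted p under 0.05 (median difference 0.20), with 11 higher after median-of-ratios scaling and 2 after scaling to equal totals. Nop10, a subunit of the snoRNPs that modify rRNA, ranged from 49.3 to 71.7 fpkm in W rats and from 64.5 to 113 fpkm in WRF rats, a difference of 0.43 ± 0.10 (adjusted p = 0.0581). Of 46 translation factors, 24 were higher and 0 lower (median 0.21), with 17 and 2 after median-of-ratios scaling and 1 and 1 after scaling to equal totals. Eif5a ranged from 160.1 to 215 fpkm in W rats (median of 201) and from 209.5 to 309 fpkm in WRF rats (median of 251). The factor, which relieves stalled ribosomes, differed by 0.37 ± 0.09 (adjusted p = 0.0581). Eef1b2, which recharges the elongation factor with GTP, differed by 0.40 ± 0.09 (adjusted p = 0.0581). The aminoacyl-tRNA synthetases, which charge tRNAs, were closer to the background, with 7 higher and 1 lower of 35 (median 0.07, and -0.09 after scaling to equal totals).

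Proteasome genes followed. Of 48 measured members, 29 were higher and 1 lower, with a median difference of 0.19. After median-of-ratios scaling 14 were higher and 1 lower (median 0.12), and after scaling to equal totals 0 and 1 (median 0.03). Psmb2 ranged from 50.2 to 63.3 fpkm in W rats (median of 58.0) and from 63.5 to 72.7 fpkm in WRF rats (median of 67.6). All 9 WRF rats lay above all 9 W rats, with a difference of 0.25 ± 0.06 (adjusted p = 0.0581). Such a complete separation was found for 17 genes of the table (0.166%) in the higher direction and for 0 in the lower (0%). Besides Psmb2 they included the import receptor Tomm22, the RNA polymerase II subunit Polr2d, the dolichol phosphate mannose synthase subunit Dpm1, the glutathione transferase Gsto1, the lysosomal Ragulator subunit Lamtor5, and the cytochrome c oxidase assembly factor Surf1, listed under 2 entries. The other members by rule, Psmb4 (difference 0.35 ± 0.08), Psmb3 (0.34 ± 0.09), and Psmb6 (0.36 ± 0.09), are catalytic or structural subunits of the core particle, and none was called.

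Nuclear genes of mitochondria were on the higher side as deposited. At an unadjusted p under 0.05, 47 of 71 mitochondrial ribosomal proteins were higher, as were 24 of 33 import and chaperone genes, 23 of 34 subunits of respiratory complex I, and 21 of 44 subunits of complexes II to V, and none of these was lower. The median differences were 0.23, 0.24, 0.26, and 0.24. After median-of-ratios scaling 16, 7, 5, and 8 members were higher, again with 0 lower, and after scaling to equal totals 1, 2, 0, and 0. Over all genes, median-of-ratios scaling left 12.7% higher and 13.9% lower, and the 5 of 34 complex I genes were near the share higher. Tomm22 ranged from 58.9 to 68.4 fpkm in W rats (median of 66.4) and from 69.7 to 86.2 fpkm in WRF rats (median of 77.0). The difference was 0.26 ± 0.06 (adjusted p = 0.0581), with no overlap between the groups. Timm10b, of the inner membrane import machinery, differed by 0.40 ± 0.09, and Mrpl41, of the large mitochondrial ribosomal subunit, by 0.35 ± 0.08. Ndufc2 ranged from 256 to 429 fpkm in W rats (median of 340.0) and from 355 to 471 fpkm in WRF rats (median of 415). This accessory subunit of complex I differed by 0.36 ± 0.09 (adjusted p = 0.0615), Cox8a of complex IV by 0.37 ± 0.09 (adjusted p = 0.0611), and Uqcrh of complex III by 0.38 ± 0.11 (adjusted p = 0.0713). In W20-22 the mean of the complex I genes was lowest of the 6 sets, at -0.173, -0.406, and -0.141 relative to the mean of the W rats.

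**Figure D2:**
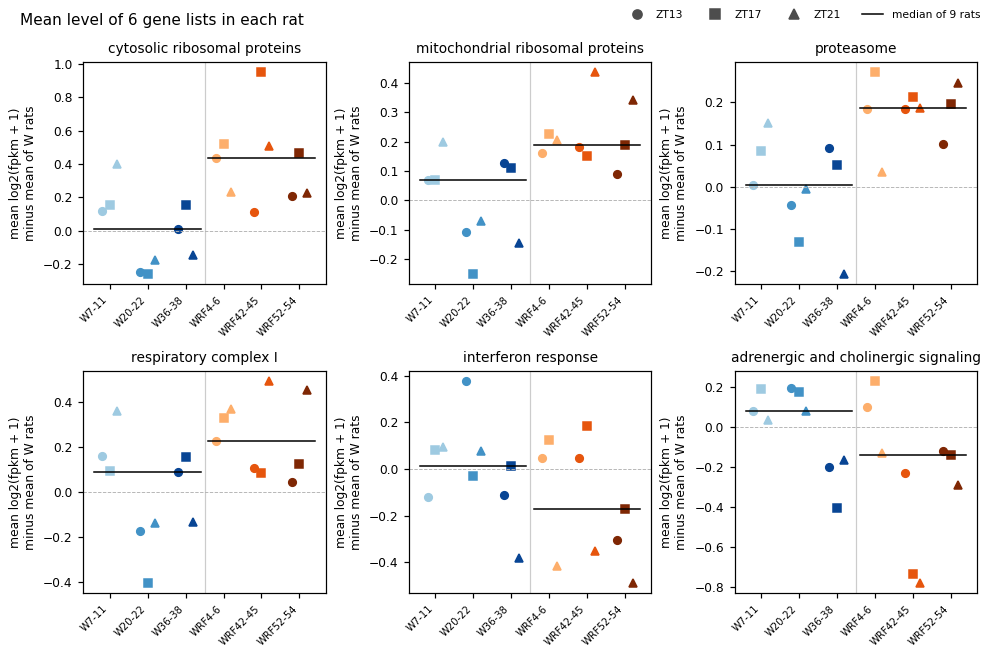
Mean log2(fpkm + 1) of 6 gene lists in each rat, relative to the mean of the 9 W rats (y axis), by set of rats (x axis), with symbols for the time and lines for the group medians. For cytosolic ribosomal proteins the 9 WRF rats lie between 0.11 and 0.951. The W rats overlap them, at -0.259 (W21) to 0.398 (W11), with W20-22 the lowest set. The adrenergic and cholinergic genes reach their lowest values in WRF44 and WRF45 (-0.735 and -0.778). They lie between -0.129 and 0.231 in WRF4-6, against -0.406 to 0.198 in the W rats.

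Redox, lysosomal, and spliceosome genes were also on the higher side as deposited, with counts that depended on scaling. Of 43 antioxidant and glutathione genes, 22 were higher and 0 lower (median difference 0.21), with 12 higher after median-of-ratios scaling and 7 after scaling to equal totals. Txn1 ranged from 286 to 392 fpkm in W rats (median of 327) and from 341 to 573 fpkm in WRF rats (median of 437). Thioredoxin, which reduces protein disulfides, differed by 0.45 ± 0.09 (adjusted p = 0.0581). Gsto1 ranged from 45.7 to 66.7 fpkm in W rats (median of 60.4) and from 66.8 to 95.2 fpkm in WRF rats (median of 75.8), and the difference was 0.37 ± 0.08 (adjusted p = 0.0581). Gpx4, which reduces lipid peroxides, differed by 0.40 ± 0.11, and Prdx4, a peroxidase of the endoplasmic reticulum, by 0.53 ± 0.14. Of 64 lysosome and autophagy genes, 28 were higher and 1 lower (median 0.16), against 21 and 4 after median-of-ratios scaling and 4 and 3 after scaling to equal totals (median 0.01), with Atp6v1d, of the proton pump, at 0.32 ± 0.07 (adjusted p = 0.0581). Of 68 spliceosome genes, 33 were higher and 1 lower (median 0.17), against 23 and 4, and 4 and 1, under these scalings, with Phf5a at 0.38 ± 0.08 and the Sm protein Snrpg at 0.52 ± 0.13.

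The genes with the smallest p, by the rule for named genes, came from diverse functions. In the higher direction they were Dpy30, a subunit of histone H3K4 methyltransferase complexes, the nucleotide hydrolase Hddc3, Pop4 of RNase P, Timm17b of the mitochondrial inner membrane translocase (listed under 2 identical entries), Cyb5a, an electron carrier of the endoplasmic reticulum, Txn1, Gtf2h5 of TFIIH, Polr2d, the calcium-binding protein S100a6, Lage3 of the tRNA-modifying KEOPS complex, Dpm1, and the cyclophilin Ppil3. Dpy30 ranged from 25.8 to 32.2 fpkm in W rats (median of 28.8) and from 30.1 to 41.4 fpkm in WRF rats (median of 37.7). Its difference of 0.38 ± 0.07 had the smallest p among the genes of the rule (unadjusted p = 1.72e-05, adjusted p = 0.0581 in limma). S100a6 ranged from 109.6 to 202 fpkm in W rats (median of 151) and from 169 to 512 fpkm in WRF rats (median of 258), a difference of 0.81 ± 0.16, the largest of the 12. The unadjusted p-values of the 12 ran up to 0.000153, and their adjusted p was 0.0581.

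**Figure D3:**
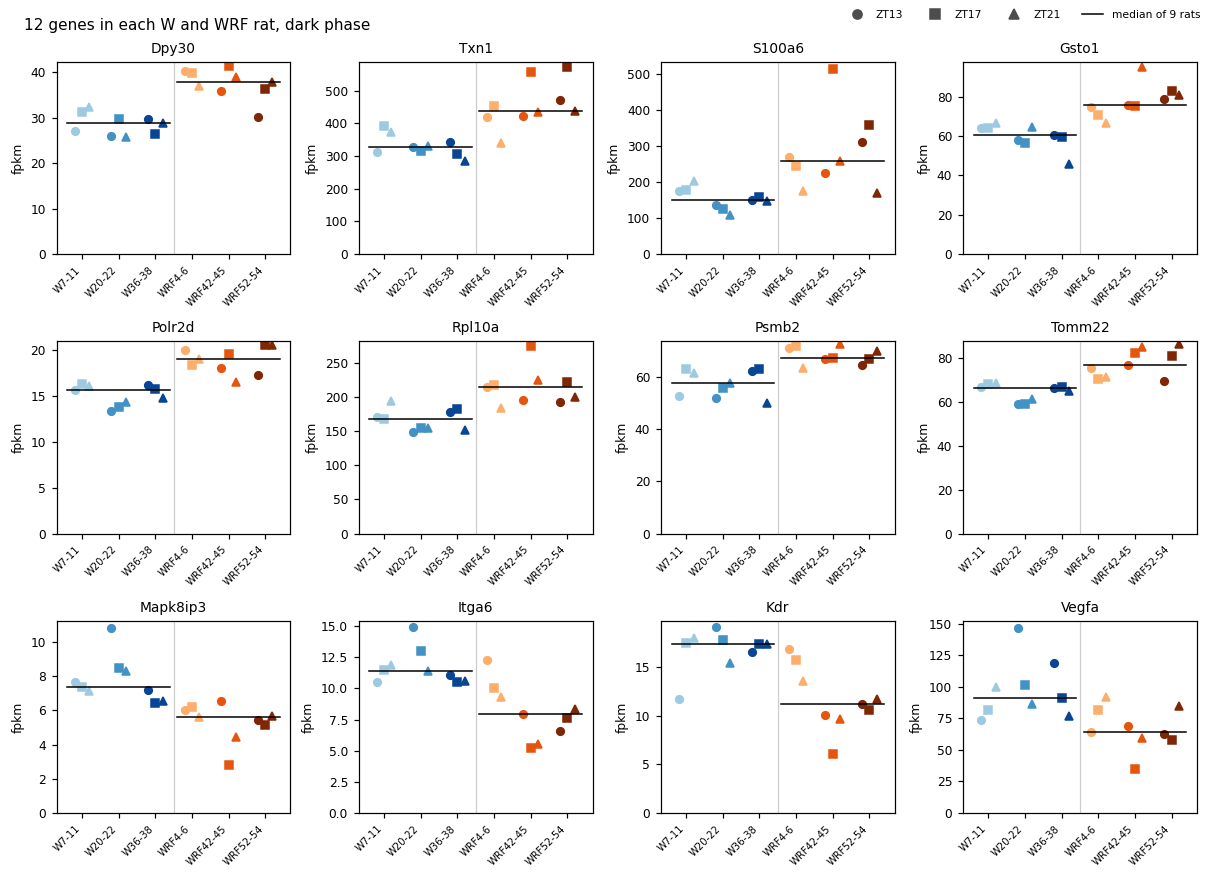
Level of 12 genes (y axis, fpkm, from 0) in each W and WRF rat by set (x axis), with symbols for the time and lines for the group medians. Gsto1, Polr2d, Psmb2, and Tomm22 do not overlap between the groups, and Mapk8ip3, Itga6, Kdr, and Vegfa have their lowest value in WRF44.

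In the lower direction the rule gave the kinesin and JNK adaptor Mapk8ip3, the metalloprotease Adam19, the laminin receptor subunit Itga6, the interferon-induced Rsad2, the zinc finger gene Zfp958, the kelch protein Klhl31, the pseudogene Hmox2.ps1, the VEGF receptor Kdr, the ankyrin Ank3, N-cadherin (Cdh2), the L-type calcium channel Cacna1c, and Vegfa. Mapk8ip3 ranged from 6.46 to 10.8 fpkm in W rats (median of 7.36) and from 2.78 to 6.58 fpkm in WRF rats (median of 5.64), a difference of -0.49 ± 0.11 (adjusted p = 0.0581). Kdr ranged from 11.7 to 19.1 fpkm in W rats (median of 17.4) and from 6.1 to 16.8 fpkm in WRF rats (median of 11.2), a difference of -0.52 ± 0.15 (adjusted p = 0.0656). Vegfa, the ligand of Kdr, ranged from 74.0 to 147 fpkm in W rats (median of 91.0) and from 35.2 to 92.1 fpkm in WRF rats (median of 64.0), a difference of -0.54 ± 0.16 (adjusted p = 0.0701). The ranges of all 3 genes overlapped. The higher and lower genes differed in size. The RefSeq span had a median of 9.96 kb for the genes higher at an unadjusted p under 0.05, 72.9 kb for the lower, and 22 kb for all genes of the table (95.1%, 97%, and 95.9% matched). The part of gene length, RNA quality, or library preparation in these results was not tested.

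Lists with many lower members were those of the interferon response, adrenergic and cholinergic signaling, and chromatin. Fewer were lower over the genes averaging 5 fpkm or more. There 4, 5, and 2 members were lower and 3, 1, and 1 higher at an unadjusted p under 0.05, in this order. The medians were -0.10, -0.14, and 0.02. Of all 6097 genes past this filter, 218 were lower and 2003 higher (median 0.12), so fewer of all genes were lower as well. Of 35 measured interferon genes, 12 were lower and 3 higher, with a median difference of -0.21, and -0.27 after median-of-ratios scaling. Against C rats, 2 were higher and 1 lower in WRF rats (median -0.07), and 2 were higher and 0 lower in W rats (median 0.10). Rsad2 ranged from 4.82 to 9.27 fpkm in W rats (median of 8.43) and from 2.85 to 8.3 fpkm in WRF rats (median of 3.81). The C rats had a median of 5.68 fpkm of Rsad2. This antiviral enzyme differed by -0.64 ± 0.17 (adjusted p = 0.0619), the dynamin-like GTPase Mx1 by -0.45 ± 0.14, and the RNA sensor Ddx58 by -0.27 ± 0.09, whereas the 3 higher members were the membrane proteins Ifitm1, Ifitm2, and Ifitm3, with Ifitm2 at 0.42 ± 0.12. Of 35 adrenergic and cholinergic genes, 10 were lower and 1 higher (median -0.14). With Myl7 as a covariate 2 were lower, and among the rats with under 100 fpkm of Myl7 the median was 0.12, as it was over all genes (0.12). Adcy5, the main cardiac adenylyl cyclase, ranged from 21.8 to 30.1 fpkm in W rats and from 16.97 to 24.8 in WRF rats, a difference of -0.24 ± 0.08 (adjusted p = 0.0742). Of 30 histone deacetylase and chromatin genes, 10 were lower and 1 higher (median -0.06), of 29 ion channel genes 5 and 2 (median -0.11), and of 33 calcium cycling genes 4 and 3 (median -0.09).

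The WRF sets were not alike. In a fit with 1 mean per WRF set, chosen after the data were seen, the higher-numbered sets WRF42-45 and WRF52-54 were compared with WRF4-6. These 6 rats differed from WRF4-6 in 1929 genes at an adjusted p of 0.05, 900 higher (8.77%) and 1029 lower (10%). With the times of the other label field, which bring in WRF46 and WRF55 for WRF42 and WRF52, they differed in 2561 genes, 1145 higher and 1416 lower. Without WRF4-6, limma called 2383 genes higher (23.2%) and 1178 lower (11.5%) than in W rats. In the fit with 1 mean per WRF set, 4655 of 10257 genes were called between WRF42-45 and W, 2694 higher and 1961 lower. Between WRF52-54 and W only 60 were called, 52 higher and 8 lower. For WRF4-6 against W, 0 genes were called, with 539 higher (5.25%) and 85 lower (0.829%) at an unadjusted p under 0.05. Both comparisons share the 9 W rats, so some agreement in direction was built in. Of the 2383 genes called higher without WRF4-6, 1694 were also above W in WRF4-6, against 6849 of all 10257 genes. Of the 1178 called lower, 308 were below W in WRF4-6. On the first principal component, which held 36.4% of the variance, WRF4-6 lay at -18.7 to -14.7, the W rats at -18.0 to -0.4, and the other 6 WRF rats at 1.5 to 60.1.

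The ribosomal proteins were above W in WRF4-6 as well as in the higher-numbered sets. Their median difference from W was 0.34 in WRF4-6, 0.54 in WRF42-45, and 0.29 in WRF52-54, and 45 of 82 were higher at an unadjusted p under 0.05 in WRF4-6 (5.25% of all genes). Complex I genes had medians of 0.33, 0.29, and 0.21, with 15 of 34 higher in WRF4-6. In the comparison of the sets, 2 ribosomal protein genes were called higher and 0 lower. Among the 3 WRF4-6 and the 3 W rats numbered 11 or lower, the medians were 0.17 for ribosomal proteins and 0.10 for complex I, against 0.03 over all genes. In these rats 0 members of either list passed an unadjusted p under 0.05.

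Other genes split the WRF sets. Of 35 genes of fatty acid use and PPAR alpha, 6 were lower and 1 higher in the higher-numbered sets than in WRF4-6. Of 31 genes of the FoxO, insulin, and nutrient response 9 were lower and 1 higher, against 10% lower of all genes. Pdk4, Fbxo32, and Ppargc1a were chosen from these lists after their values were seen. Pdk4 stood at 125.6, 88.6, and 42.2 fpkm in WRF4-6, at 63.8, 7.53, and 5.35 in WRF42-45, and at 65.3, 23.8, and 14.2 in WRF52-54 (in the order ZT13, ZT17, and ZT21 of the titles), and between 47.8 and 127.7 in W rats. WRF6 and the rats of the higher-numbered sets at ZT17 and ZT21 lay below every W rat. The other 4 WRF rats lay within the range of the W rats. The higher-numbered sets minus WRF4-6 differed by -1.90 (adjusted p = 0.0260), and over all 9 WRF rats the difference from W was -1.20 ± 0.48 (adjusted p = 0.119). Fbxo32 was 14.9 to 20.1 fpkm in WRF4-6, 1.86 to 9.02 fpkm in the higher-numbered sets, and 10.6 to 22.9 fpkm in W rats. The higher-numbered sets thus lay below every W rat. The sets differed by -1.75 (adjusted p = 0.00955). Ppargc1a was 6.89 to 8.14 fpkm in WRF4-6, 1.38 to 3.30 in the higher-numbered sets, and 2.66 to 9.02 in W rats (sets differing by -1.41, adjusted p = 0.00955).

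The same order held for genes of cardiac signaling. The alpha1A adrenergic receptor Adra1a was 3.71 to 5.50 fpkm in WRF4-6, 0.29 to 1.62 in the higher-numbered sets, and 2.24 to 5.33 in W rats. The phosphodiesterase Pde3a, which breaks down cAMP, was 8.37 to 10.9 fpkm in WRF4-6, 0.85 to 4.08 in the higher-numbered sets, and 4.31 to 10.4 in W rats. The potassium channel Kcnj2, which sets the resting potential, was 3.24 to 4.76, 0.34 to 2.39, and 2.58 to 6.33 fpkm. The sets differed by -1.31, -1.65, and -1.18 for Adra1a, Pde3a, and Kcnj2 (each adjusted p = 0.00955), and by -1.26, -1.72, and -1.32 with the times of the other label field. Of the 35 adrenergic and cholinergic genes, 12 were lower and 1 higher in the higher-numbered sets than in WRF4-6.

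**Figure D4:**
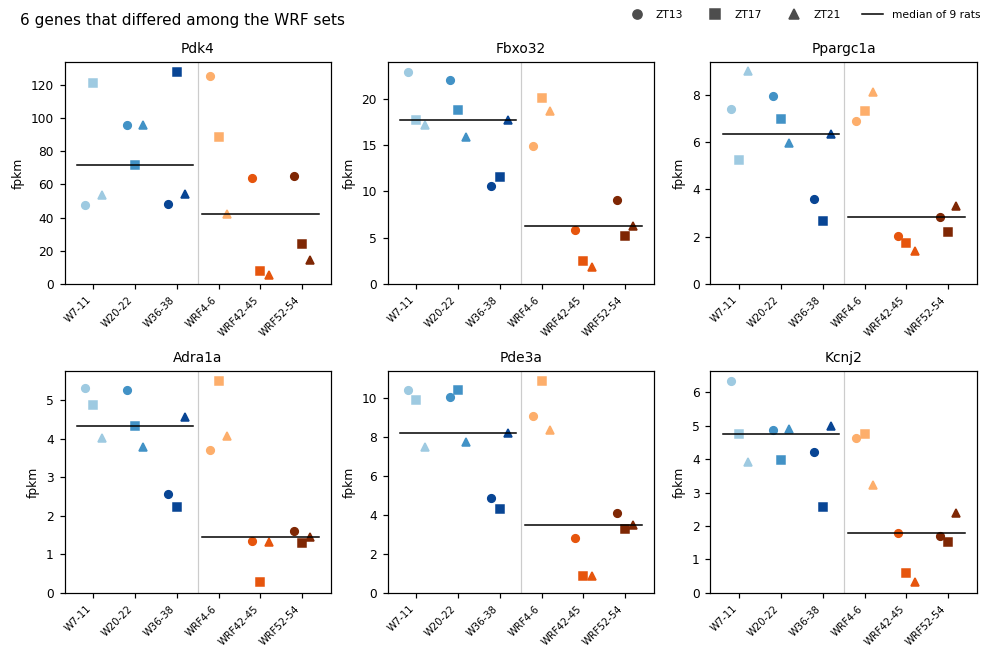
Level of 6 genes (y axis, fpkm, from 0) in each W and WRF rat by set (x axis), chosen after their values were seen. Fbxo32, Adra1a, Pde3a, and Kcnj2 are lower in all 6 rats of the higher-numbered WRF sets than in every W rat. WRF4-6 overlap the W rats in all 6 panels.

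Low levels of these genes were not limited to WRF rats. In the C rats numbered 36 to 38, Fbxo32 was 6.09, 3.76, and 3.00 fpkm, against 12.5 to 28.9 fpkm in the other 6 C rats, and Pdk4 was 31.1, 25.9, and 14.1 fpkm, against 44.5 to 131.3 fpkm. Ppargc1a was 1.85 to 2.21 fpkm in these 3 C rats and 4.91 to 9.65 fpkm in the other 6. Rats W36-38 held 10.6 to 17.8 fpkm of Fbxo32, against 15.8 to 22.9 fpkm in the other W rats. Rat number and food access cannot be told apart for the WRF rats numbered 42 and above, since no W rat of the dark phase had such a number. Of the nutrient genes, Irs1, an insulin receptor substrate, differed by -0.48 ± 0.13 over all WRF rats (adjusted p = 0.0619), the translation repressor Eif4ebp1 by 0.48 ± 0.13 (adjusted p = 0.0652), and the IGF-binding protein Igfbp6 by 1.04 ± 0.33 (adjusted p = 0.0765). The list of fatty acid use and PPAR alpha targets had 0 higher and 3 lower of 35 (Pdk4, Ppargc1a, and the uncoupling protein Ucp3, at -0.57 ± 0.25), with a median of 0.02, and -0.05 after median-of-ratios scaling.

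Markers of fibroblasts were higher as well at the unadjusted threshold. Of 13 fibroblast markers, 9 were higher and 0 lower, with a median difference of 0.56, 0.49 after median-of-ratios scaling, and their summed level ranged from 1130 to 1890 fpkm in W rats and from 1339 to 3416 in WRF rats. Gsn, the actin-severing protein gelsolin, ranged from 439 to 679 fpkm in W rats (median of 544) and from 551 to 1504 fpkm in WRF rats (median of 772), a difference of 0.56 ± 0.15 (adjusted p = 0.0615). The collagen and matrix list, which shares members such as Dcn and Lum with the fibroblast markers, had 43 measured genes, of which 15 were higher and 0 lower (median 0.14, and -0.00077 after scaling to equal totals). Postn, secreted by activated fibroblasts, ranged from 0.968 to 5.03 fpkm in W rats and from 1.38 to 10.4 in WRF rats (1.07 ± 0.29, adjusted p = 0.0619), with Lum at 0.56 ± 0.16 and Dcn at 0.40 ± 0.12. Of 11 S100 genes 6 were higher (median 0.31), with S100a4 at 0.83 ± 0.19 and S100a10 at 0.59 ± 0.19. The medians of the fibroblast markers were 0.18 in WRF4-6, 0.85 in WRF42-45, and 0.54 in WRF52-54. Relative to the mean of the W rats, the mean of these markers was 1.465 in the control C29, above every WRF rat (up to 1.207). The other C rats lay between -0.454 and 0.854.

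Of 16 macrophage markers, 5 were higher and 0 lower (median 0.37), a share near the 23.2% of all genes, with 1 higher after scaling to equal totals and 2 with Myl7 as a covariate. Their summed level was 119.6 to 323.7 fpkm in W rats and 193.3 to 660.3 in WRF rats. C1qb, a complement component, ranged from 10.6 to 39.0 fpkm in W rats and from 21.8 to 99.0 in WRF rats (0.76 ± 0.27, adjusted p = 0.0916). Of 15 endothelial markers, 0 were higher and 3 lower (Cdh5, Kdr, and Robo4, median of the list -0.09), with Cdh5, the endothelial cadherin, at -0.68 ± 0.24. None of the 13 measured atrial genes passed the unadjusted threshold. Myl7, their defining gene, had a median of 13.1 fpkm in W and 674.1 in WRF rats, with overlapping ranges of 2.31 to 2858 and 3.37 to 23938. With Myl7 as a covariate, 79 ribosomal protein genes were higher and 0 lower, as were 29 complex I and 7 fibroblast genes. The part of cell composition in the results above was otherwise not tested. Among the 5 W and 4 WRF rats with under 100 fpkm of Myl7, the median was 0.20 for ribosomal proteins and 0.33 for fibroblast markers, against 0.12 over all genes. In these rats 3 of 82 ribosomal protein genes, 1 of 34 complex I genes, and 3 of 13 fibroblast markers were higher at an unadjusted p under 0.05. Over all 10257 genes, 574 were higher.

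**Figure D5:**
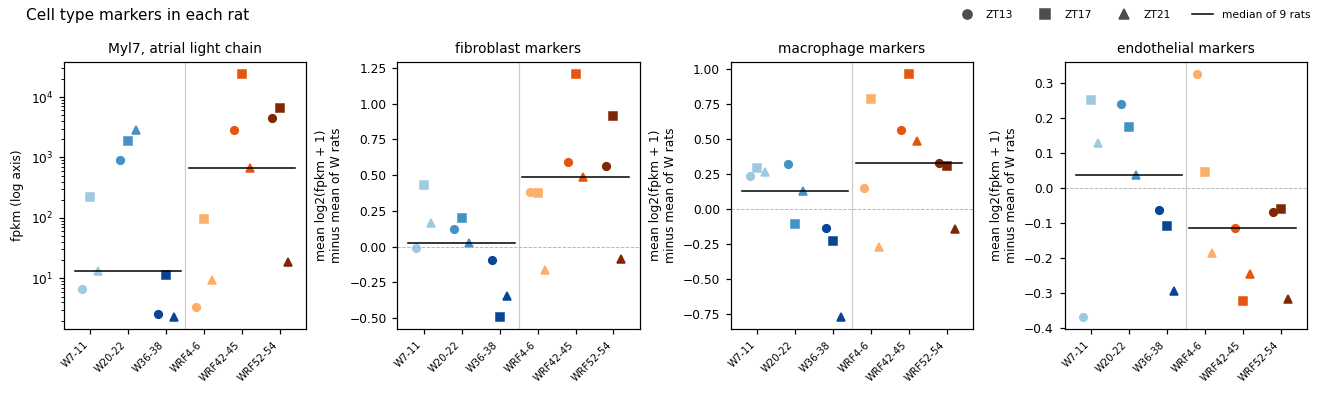
Level of Myl7 (first panel, fpkm, log axis) and mean log2(fpkm + 1) of fibroblast, macrophage, and endothelial markers relative to the mean of the W rats (other panels), by set of rats. WRF44 holds the highest Myl7 level, 23938 fpkm, and the highest fibroblast and macrophage means, 1.207 and 0.965, and among W rats W37 has the lowest fibroblast and W38 the lowest macrophage mean.

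Of 15 clock genes, 1 was lower (Clock) and 1 higher (Cry2) at the unadjusted threshold, against 6.07% lower and 23.2% higher of all genes. Clock ranged from 2.12 to 4.37 fpkm in W rats (median of 3.67) and from 1.93 to 3.79 fpkm in WRF rats (median of 2.41). The difference was -0.34 ± 0.10 (adjusted p = 0.0727). Cry2 ranged from 5.59 to 9.94 fpkm in W rats (median of 9.11) and from 7.63 to 12.1 fpkm in WRF rats (median of 10.98). The difference was 0.31 ± 0.11 (adjusted p = 0.087). The lowest W values of Cry2, 5.59 and 5.80 fpkm, were those of W37 and W38. Relative to C rats, Cry2 differed by -0.34 ± 0.10 in W and -0.03 ± 0.10 in WRF rats, and Clock by 0.17 ± 0.14 and -0.17 ± 0.14. The clock output Dbp ranged from 7.17 to 56.7 fpkm in W and from 7.28 to 80.8 fpkm in WRF rats. At ZT13 it was 50.9 and 56.7 fpkm in W7 and W20 but 7.17 in W36, against 48.5 to 80.8 in WRF rats. The glucocorticoid targets Tsc22d3 and Fkbp5 had medians of 41.9 and 7.72 fpkm in W, 71.7 and 12.7 in WRF, and 72.5 and 13.9 in C rats. Their WRF minus W differences were 0.56 ± 0.19 (adjusted p = 0.0814) and 0.44 ± 0.19 (adjusted p = 0.139).

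The WRF minus W difference was not found to vary among the 3 times, a comparison that rests on 3 rats per group and time. The interaction of group and time called 0 genes (percent called 0), with 153 at an unadjusted p under 0.05. At ZT13, ZT17, and ZT21, 0 genes were called each, and 510, 1629, and 515 were higher and 47, 142, and 176 lower at an unadjusted p under 0.05, with 3 rats per group. The median of the ribosomal proteins was 0.29, 0.60, and 0.28 at these times. The median of complex I genes was 0.13, 0.26, and 0.43. The difference between the dark and the light phase (36 rats) called 0 genes, with 112 at an unadjusted p under 0.05 (1.09%). In the fit of all 36 rats, the median difference over all genes was 0.10 in the light phase and 0.07 in the dark phase. Without the light-phase rats WRF51 and WRF62, left out as an alternative because they stood apart, it was 0.02 in the light phase. The light-phase median was then 0.15 for ribosomal proteins and 0.29 for complex I genes. No dark-phase rat was left out in this alternative, yet its dark-phase difference called 14 genes higher and 0 lower. With all 36 rats that difference called 0 genes.

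Against C rats of the same hours, with which W and WRF comparisons share animals, W rats had 0 genes called, 88 higher (0.858%) and 179 lower (1.75%) at an unadjusted p under 0.05. WRF rats had 1 gene called, Spata33, and 1438 higher (14%) and 281 lower (2.74%). Spata33 ranged from 0.790 to 2.14 fpkm in C and from 1.76 to 3.56 in WRF rats (difference 0.66 ± 0.11, adjusted p = 0.0442). Of the 82 ribosomal protein genes, 79 were higher than in C in WRF rats (median difference 0.39) and 0 in W rats (median -0.02). Complex I genes gave 15 and 0 of 34 (medians 0.28 and 0.01), and proteasome genes 22 and 0 of 48 (medians 0.17 and -0.02). Fibroblast markers gave 3 and 0 of 13 (medians 0.38 and -0.02). Collagen and matrix genes gave 4 and 1 of 43 (medians 0.15 and -0.07).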

How the data were processed

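Total RNA of 54 rat hearts was sequenced by the authors from directional polyA libraries. Per the labels and the submitters' processing notes, reads were aligned to rn6 with TopHat2 and expression was estimated with Cufflinks. Versions and the annotation are not given in the sources used here. The deposited fpkm values, 1 column per rat, were used without rescaling, and 0 columns were left out. The table holds 10257 genes above 1 fpkm in at least 18 rats. The fpkm table does not hold read totals, those of the study were not used here, and no interval for counting error was computed. In all, 497 entries share all values with another entry, 106 values of the 18 rats are 0, and without a count of reads paralogs and pseudogenes are uncertain.

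Groups and times came from the rat names. The W and WRF rats were compared on the log2(fpkm + 1) scale with limma 3.58.1 in R 4.3.3, time being a factor, a trend in the variance, and Benjamini-Hochberg adjustment over all genes (adjusted p of at most 0.05). The fit was tested on simulated data. P-values measure the spread between rats of a group. Fits per time, with an interaction, over both phases, and against C rats used the same scale. The gene lists, 33 of pathways and 16 of markers, were described by counts and medians, with no test of the lists. The members and lists were chosen with earlier results of these data known. Named genes are the 12 with the smallest p in each direction (mean of at least 5 fpkm, no placeholder symbol, and the first of entries with identical values), since 0 genes were called, plus up to 4 genes per list, taken in order of p, clock genes, and markers. The genes shown by WRF set, Spata33, and the genes without overlap were named after their values were seen. Alternatives were other pseudocounts, filters, scalings, times, tests, and sets of rats. Python 3.11.15 with numpy 2.4.6, pandas 2.3.3, and matplotlib 3.10.9 made tables and plots. Promoters and gene spans came from RefSeq (GRCr8), not the build of the files. Of 82 ribosomal protein genes 66 had a promoter sequence and of 48 proteasome genes 44. For symbols with several entries the first was used. Other hearts of the series, histology, and chromatin data were not analysed here.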

Additional observations from a re-analysis of the deposited data

Results flagged for a closer look

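Among the 9 rats of a group, a rat stood apart where its gap to the nearest other rat, divided by the range of the group, exceeded Dixon's 95% critical value. This was so in 14 of the 146 groups of values tested (named genes and means of gene lists), and chance gives about 1 in 20. Among WRF rats, WRF44 was highest for Hddc3 (gap 0.591, level 37.1 fpkm) and lowest for Mapk8ip3 (gap 0.525, 2.78 fpkm) and Vegfa (gap 0.509, 35.2 fpkm). It was also highest for the means of cytosolic ribosomal proteins (gap 0.511), T cell markers (0.559), and skeletal muscle markers (0.635). WRF52 was lowest for Dpy30 (gap 0.54, 30.1 fpkm), WRF6 was lowest for the mean of translation factors (0.497), and WRF53 was highest for that of smooth muscle and pericyte markers (0.588). Among W rats, W38 was lowest for Ppil3 (gap 0.539, 5.76 fpkm) and for the means of lysosome and autophagy genes (0.565) and macrophage markers (0.499). W7 was lowest for Kdr (gap 0.557, 11.7 fpkm), and W20 was highest for Cacna1c (gap 0.613, 12.1 fpkm).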

How the results depend on the processing

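No gene was called over all 18 rats, but the count depended on the rats and the filter. It was 671 over genes averaging 5 fpkm or more, 1 without the time covariate, 388 in the exact Mann-Whitney test, 2 with the times of the characteristics, 299 without W7-11, 3561 without WRF4-6, 3 with Myl7 as a covariate, 3997 for WRF42-45 alone against W, and 0 to 1135 when 1 rat was left out (679 without W11, 999 without WRF5, 1135 without WRF6, 1 without WRF52). For WRF4-6 alone and for WRF52-54 alone against W it was 0. Genes higher at an unadjusted p under 0.05 numbered 2384, and 1300 after median-of-ratios scaling, 298 after scaling to equal totals, 1319 with all 54 rats, 1553 without W36-38, 1373 without WRF42-45, 542 for WRF4-6 alone, 73 for rats numbered 11 or lower, 574 for rats with low Myl7, and 1870 to 2826 when 1 rat was left out. Genes lower numbered 623, and 218 with the 5 fpkm filter, 1426 and 935 with the scalings, 369 in the Mann-Whitney test, 249 with 54 rats, 300, 111, and 1340 without W7-11, W20-22, or W36-38, 1679, 112, and 305 without WRF4-6, WRF42-45, or WRF52-54, 342 with Myl7 as a covariate, 81 for WRF4-6 alone, 2157 for WRF42-45 alone, 87 for rats numbered 11 or lower, 46 for rats with low Myl7, and 287 to 1177 when 1 rat was left out. The gene called in WRF against C was lost after median-of-ratios scaling (0 genes). Of the 157 genes that the naming rule gives at an unadjusted p under 0.05, 128 kept their direction under every alternative, as did 66 of the 73 among them that are described here. The other 7 were above 0 in some small sets of rats: Ank3 at 0.002372 for rats numbered 11 or lower, Pdk4 at 0.06613 for WRF4-6 alone and 0.1956 for rats numbered 11 or lower, Ppargc1a at 0.3031, 0.06049, and 0.1703 for these and for rats with low Myl7, Fbxo32 at 0.08424 and Adra1a at 0.1066 for WRF4-6 alone, Pde3a at 0.2297, 0.02664, and 0.1535, and Cdh5 at 0.03903 for rats with low Myl7. The cause of these changes was not tested. The fits of single WRF sets, of low-numbered rats, and of rats with low Myl7, and the comparison of WRF sets, were chosen after seeing the data. No paired analysis was possible because the W and WRF rats of the dark phase share no rat number. Fpkm without read totals limit how low values can be read.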
